A study of Rattus norvegicus with 18 samples.

Results

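The genes described here carry symbols that begin with Snx, Rab or Rin and a digit, Vps, Tbc1d, Sec and a digit, Stx and a digit, Vamp, Arfgef, Arfgap, Asap or Dennd, or that name a subunit of the adaptor complexes AP-1 to AP-4. They were chosen by name from lists of N6-methyladenosine (m6A) peaks in rat H9c2 cells, and 103 of the 4846 genes with a peak met the rule. Together they held 603 of 32961 peaks, which fell into 176 of 9022 sites. All 103 symbols were found in the RefSeq gene table of the rat. The name does not always fit the topic: Vps72 is a chromatin protein that deposits a histone variant, and it is kept because the rule takes it.

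H9c2 is a line derived from embryonic rat heart, labelled as cardiomyocyte and wild type, and all groups were cultured in the same medium. The SYD group received 50 µM phenylephrine (PE) together with Shen-Yuan-Dan (SYD), a capsule of botanical drugs, for 24 h. For SYD, the labels of the samples state 2 mg/mL, whereas the series text states 1 mg/mL. The Model group received 50 µM PE alone for 24 h, and the Control group received neither. PE activates α1-adrenergic receptors and is a common means of inducing hypertrophy in heart muscle cells. Each group had 3 replicates with an IP and an input library, 18 samples in all, which the authors reduced to 9 lists of peaks on mRNA. No source used here says that replicates were separate cultures, so the spread between them may be technical. SYD was always given with PE, so an effect of SYD without PE cannot be told apart from its effect on PE-treated cells.

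Cells move membrane proteins between compartments in vesicles. Rab GTPases mark each compartment when bound to GTP, guanine exchange factors such as the Rin and DENN proteins switch them on, and Tbc1d proteins switch them off. Coats and adaptors (COPII from the endoplasmic reticulum, the AP complexes at the Golgi apparatus, endosomes and plasma membrane) choose the cargo. Sorting nexins and retromer return receptors from endosomes, and ESCRT sorts receptors for breakdown. HOPS with SNARE proteins fuses membranes at the late endosome and lysosome. m6A is a methyl mark on mRNA that reader proteins bind, with effects on splicing, export, translation and decay.

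A site is a stretch where peaks of the lists overlapped by at least 1 base, and a library holds a site when its list has a peak there. Sites of a gene are numbered along the chromosome, and positions are 1-based on the genome build rn6. The peak score is 10 times the negative log10 of the p-value of MACS, the peak caller used by the authors, and its lowest value was 20.0. Fold enrichment is the ratio of IP to input. A site missing from a list was not called there, which does not show that the RNA lacked m6A. Read numbers are not in the lists, so the depth of the libraries is unknown. The lists also hold no RNA levels, and in bulk RNA fewer cells of a type and less RNA per cell cannot be told apart.

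Fewer trafficking genes carried a called peak in the SYD libraries than in the others. The SYD libraries held peaks in 35, 37 and 41 of these genes, the Model libraries in 57, 46 and 55, and the Control libraries in 70, 43 and 55. The means were 37.7 ± 3.06 genes in SYD, 52.7 ± 5.86 in Model and 56.0 ± 13.5 in Control (SD, n = 3 each). In these gene counts SYD did not overlap with Model or with Control, whereas Model and Control overlapped, and the same was so over all genes. Counted as peaks, the trafficking genes overlapped between SYD (45 to 56 peaks) and Model (56 to 81) and not between SYD and Control (57 to 105). Without Control replicate 1, the mean of Model was 3.67 genes above that of Control, so the order of these groups rested on that library. The ratio of group means was 0.715 for the trafficking genes and 0.740 for all genes in SYD over Model, 0.940 and 0.884 in Model over Control, and 0.673 and 0.654 in SYD over Control. The trafficking genes made up 1.94% to 2.05% of the genes with a peak in the SYD libraries, 1.94% to 2.26% in the Model libraries and 1.77% to 2.00% in the Control libraries. Their share stayed within a narrow band while the lengths of the lists changed.

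The difference between groups was not present in lists of equal length. When each list was reduced to its 2508 peaks with the highest scores, the length of the shortest list, the trafficking genes with a peak averaged 34.7 ± 0.577 in SYD, 34.0 ± 6.08 in Model and 33.3 ± 7.37 in Control. With only peaks of score 50 or more, the order of the groups stayed, with 10, 14 and 10 genes in SYD, 31, 20 and 24 in Model and 43, 20 and 30 in Control. Median scores over all peaks were also lowest in SYD, at 41.5 to 43.5, beside 48.7 to 54.4 in Model and 50.8 to 62.8 in Control. All genes were not counted at this cut. The fold enrichments ran the other way from the peak numbers: the median over the trafficking peaks of a library was 20.8 to 29.6 in SYD, 9.43 to 10.7 in Model and 7.14 to 10.2 in Control. Median folds over all peaks were 21.4 to 30.9 in SYD, 9.71 to 11.2 in Model and 7.29 to 10.4 in Control. The part of library depth and of the peak calling in these shifts was not tested.

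**Figure D1:**
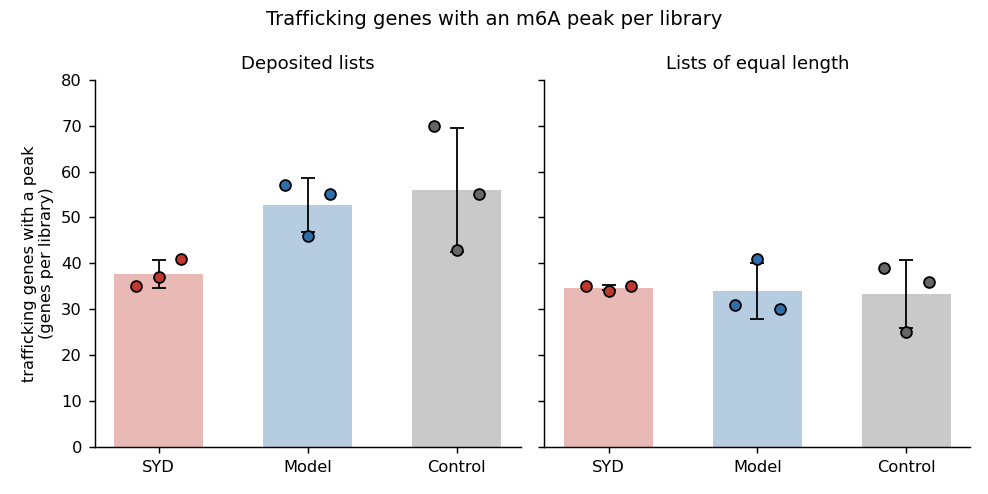
Trafficking genes with a peak per library (y axis, number of genes) for SYD, Model and Control, in the deposited lists (left) and in lists cut to 2508 peaks each (right). Points are libraries, bars are means and error bars are SD (n = 3). The SYD libraries, at 35 to 41 genes, lie below all others on the left, and the means of 34.7, 34.0 and 33.3 lie together on the right.

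The sites were unevenly shared among the libraries. Of the 176 trafficking sites, 12 were held by all 9 libraries (6.82%, beside 10.2% of all sites) and 64 by a single library (36.4%, beside 33.3%). Control replicate 1, the library with the longest list, accounted for 22 of these 64, Model replicate 1 for 12 and Control replicate 3 for 9. Counted by gene, 13 trafficking genes had a peak in every library (12.6%, beside 17.9% of all genes) and 29 in a single one (28.2%, beside 22.9%). Of the 112 trafficking sites held by more than 1 library, 82 had the same start and end in every list that held them (73.2%, beside 77.3% of all such sites), and the other 30 shared 1 of the edges.

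A peak of very high score can also stand in 1 library alone. Vps13c, which codes for a protein that transfers lipids between membranes, had a peak of 27 bases at chr8:73804480-73804506 with a score of 935.73 and a fold of 17.72 in Control replicate 1, the highest score of any trafficking peak, and none in the other 8 lists. It was chosen after its values were seen.

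By role group, the number of genes with a peak did not overlap between SYD and Model in 2 of 16 groups, the Rab GTPases and the translocon, and between SYD and Control in 3, the Rab GTPases, HOPS and CORVET, and the other Vps genes. Over all genes the numbers did not overlap either, with 1783 to 1997 genes in SYD, 2037 to 2943 in Model and 2427 to 3507 in Control. For the Rab GTPases, peaks were found in 16 of the 58 Rab symbols in the RefSeq table: the SYD libraries held 2, 5 and 5, the Model libraries 7, 9 and 6 and the Control libraries 10, 8 and 7 genes. No SYD library reached the lowest Model or Control library. In lists of equal length the Rab counts were 2, 5 and 4 in SYD, 4, 7 and 2 in Model and 6, 6 and 6 in Control. SYD and Model then overlapped, and SYD and Control did not. The translocon, with peaks in 2 of its 10 symbols (Sec62 and Sec63, and no Sec61 gene), still had 1 gene in each SYD library and 2 in each Model library. HOPS and CORVET had 1 gene in every library, and the other Vps genes overlapped between SYD and Control. At equal length, all role groups but the translocon overlapped between SYD and Model, and all but the Rab GTPases between SYD and Control. A share over all genes was not counted for such lists.

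Rab23, a Rab known for limiting Hedgehog signaling and for its place at the primary cilium, was the Rab gene held by all 9 libraries, at site 2 (chr9:38494903-38495176). Its scores were 23.31, 78.43 and 46.46 in SYD, 134.34, 120.27 and 119.16 in Model and 182.56, 168.24 and 188.53 in Control. The 3 groups did not overlap, with SYD lowest and Control highest. Its folds were 34.27, 38.75 and 26.16 in SYD, 20.73, 19.17 and 21.25 in Model and 16.21, 18.71 and 21.04 in Control, so the fold was highest where the score was lowest. Among the 917 sites held by all libraries, scores of all SYD libraries lay below all Model libraries in 40.9% and below all Control libraries in 55.1%. Those of all Model libraries lay below all Control libraries in 8.51%. Of the 12 trafficking sites among them, 4, 4 and 1 did so. Rab14 and Rab22a, Rabs of the early and recycling endosomes, were held by 7 libraries each (2 SYD, 2 Model and 3 Control libraries in both cases).

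Rab2a and Rab8b were called in none of the SYD libraries. The same was true of Rab3d, Rab6b, Rab10, Rab20, Rab33b, Rab35 and Rab43. Over all genes, 8.10% of the sites tested were held by every Control library and no SYD library, as was Rab2a. Every Model library and no SYD library held 4.80% of the sites tested, as was so for Rab8b. The Rab2a site, with only 28 bases (chr5:21632926-21632953), scored 25.08 and 26.11 in Model replicates 1 and 3 and 29.20, 28.16 and 32.16 in the Control libraries. Rab2a acts between the endoplasmic reticulum and the Golgi apparatus. The Rab8b site (chr8:72714471-72714664) had scores of 79.12, 40.96 and 21.96 in Model and 129.43 in Control replicate 1, with no peak in the other Control libraries. Rab8b carries vesicles to the plasma membrane. The Rab genes without any peak in the lists included Rab5a, Rab5b, Rab5c, Rab7a, Rab11a and Rab11b, which mark the early, late and recycling endosomes.

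The effectors of Rab11 were covered better than Rab11 itself. Rab11fip5 site 1 (chr4:117118679-117120685), in an effector of the recycling endosome, was held by all libraries, with scores of 71.43, 98.73 and 75.48 in SYD, 393.35, 150.78 and 133.28 in Model and 779.06, 98.99 and 77.94 in Control. SYD lay below Model without overlap, as at 40.9% of the 917 sites held by all libraries, and overlapped with Control. Rab11fip3 site 2 was held by 8 libraries, all but Model replicate 2. Rab11fip1 and Rab11fip2, of the same family, had no peak in any SYD library. Rab11fip1 site 3 (chr16:69068370-69069992) had scores of 29.81 and 35.72 in Model replicates 2 and 3 and of 47.91, 28.34 and 81.61 in Control. The Rab11fip2 site (chr1:281065168-281065594) had scores of 52.15, 29.21 and 23.19 in Model and of 31.80 and 116.54 in Control replicates 1 and 3.

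Rin3, an exchange factor for Rab5, was among the genes with the most sites (5), and its sites differed in which libraries held them. Site 1 (chr6:126170720-126170973) was held by every SYD library, with scores of 27.49, 23.84 and 21.28, by no Model library and by Control replicate 3 with 25.29. All of these scores were close to the lowest score of the lists. Site 3 (chr6:126257313-126258797), in contrast, was held by 2 libraries of each group, with scores of 75.01 and 43.45 in SYD replicates 2 and 3, 68.09 and 132.48 in Model replicates 1 and 3 and 215.59 and 206.67 in Control replicates 1 and 3. Over its 5 sites, the gene had a peak in all 9 libraries.

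Of the 30 sorting nexin symbols, 11 had a peak, and the numbers per library overlapped between all groups: 6, 4 and 5 in SYD, 7, 4 and 7 in Model and 7, 4 and 6 in Control. Snx4, a nexin of early endosome tubules that returns the transferrin receptor to the surface, had the pattern that no other trafficking site shared. Its site (chr11:70753472-70753632, 161 bases) had scores of 33.17, 20.90 and 38.24 in SYD and of 21.56, 23.98 and 31.55 in Control, and no peak in a Model library. The folds were 43.48, 19.20 and 41.43 in SYD and 7.50, 9.38 and 10.74 in Control. Median folds over all peaks of these libraries were 30.9, 21.4 and 30.2 in SYD and 7.29, 8.95 and 10.4 in Control. Over all genes, 4 sites were held by all SYD and all Control libraries and by no Model library, and Snx4 was 1 of them. Snx18, a nexin that bends membranes, Snx24 and Snx27, which works with retromer, were each held by 8 libraries, and in all 3 cases Control replicate 2 was the one without a peak. The Snx18 scores varied widely, with 179.19, 25.18 and 211.76 in SYD, 300.80, 303.18 and 28.28 in Model and 37.11 and 72.03 in Control replicates 1 and 3. Snx29 had 5 sites, none of them in a SYD library and 4 of them in a single library.

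**Figure D2:**
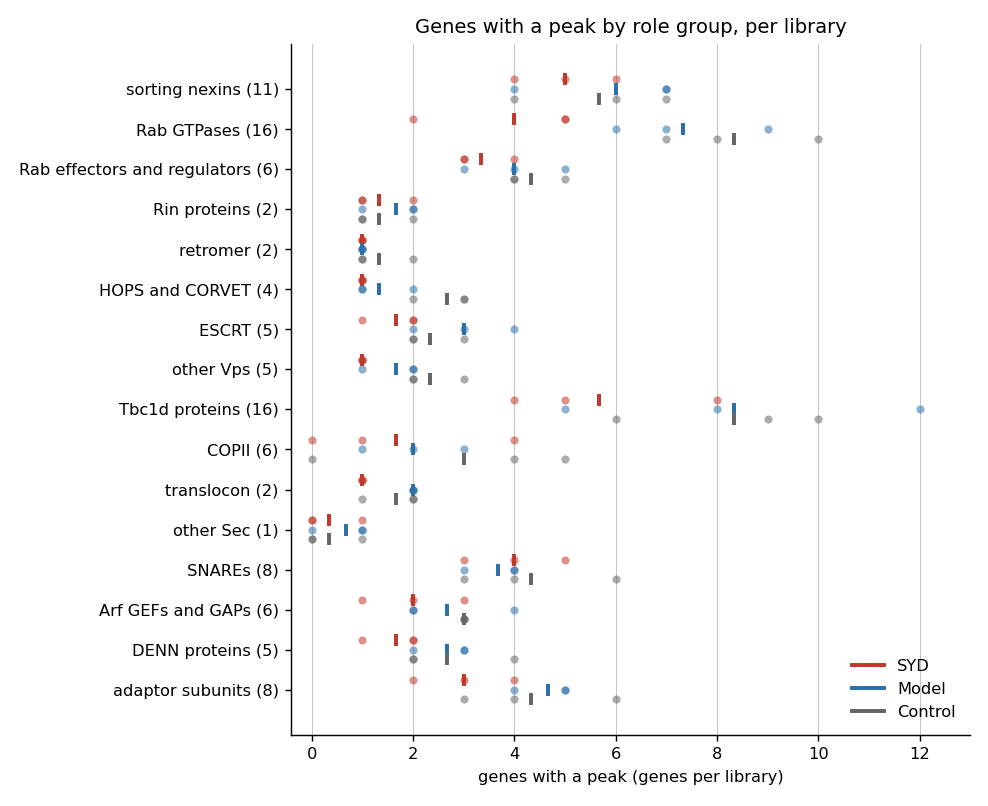
Trafficking genes with a peak per library (x axis, number of genes) in each role group (y axis, with the number of genes in the group), for SYD, Model and Control. Points are libraries and vertical bars are group means (n = 3). SYD and Model do not overlap for the Rab GTPases, at 2 to 5 and 6 to 9 genes, and for the translocon, at 1 and 2, as was so over all genes, and overlap in the other groups.

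The Tbc1d proteins, which speed the hydrolysis of GTP by Rabs, formed the group with the most sites (36 in 16 genes), and 5, 8 and 4 of these genes had a peak in SYD, 12, 5 and 8 in Model and 9, 6 and 10 in Control. Tbc1d10b held 2 sites in every library. Site 2 (chr1:198651713-198652674) had the highest lowest score of the 12 trafficking sites held by all libraries, with 302.55, 242.95 and 304.52 in SYD, 290.38, 179.90 and 525.25 in Model and 516.18, 467.90 and 333.44 in Control. SYD lay below Control without overlap, as at 55.1% of the 917 sites held by all libraries, and overlapped with Model. Site 1 (chr1:198641316-198642942) varied more within groups, with 128.23, 59.64 and 161.86 in SYD, 832.45, 77.09 and 237.49 in Model and 791.99, 61.56 and 60.31 in Control.

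Tbc1d9b had the most sites of any trafficking gene, 8 over 38983 bases of chromosome 10, and 1 or more of them in each library. Site 2 (chr10:35641909-35642019) was held by 8 libraries, all but Model replicate 1, and site 3 (chr10:35648240-35648358) by 7. Site 1 (chr10:35637133-35637320) was held by SYD replicates 2 and 3 with scores of 24.40 and 21.11, by no Model library and by the Control libraries with 31.24, 82.42 and 25.16. Site 7 was held by all Model libraries, scoring 45.70 in SYD replicate 3 alone, 68.30, 44.06 and 44.41 in Model and 71.39 in Control replicate 1 alone.

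Tbc1d9, a relative of Tbc1d9b, was the trafficking gene with a peak in all SYD libraries and in none of the other 6. It was chosen after its values were seen, and its peaks lay at 2 different sites. SYD replicates 2 and 3 had scores of 34.26 and 40.47 at chr19:24329023-24329875, and SYD replicate 1 a score of 34.18 at chr19:24427867-24428694. Of the 2299 genes with a peak in at least 3 of the SYD and Model libraries, 7 were held by all SYD libraries and no Model library (0.304%), and Tbc1d9 and Snx4 were 2 of them. Tbc1d5, which switches off Rab7 and binds retromer, was held by SYD replicate 2 with a score of 30.15, by the Model libraries with 118.27, 51.00 and 29.39 and by the Control libraries with 237.11, 24.59 and 26.11.

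The Vps groups were small, and each was carried by a gene held in every library. Vps26b, a retromer subunit (chr8:28074857-28075514), had scores of 32.43, 42.50 and 23.97 in SYD, 23.24, 31.61 and 64.36 in Model and 101.39, 31.49 and 77.78 in Control, and the groups overlapped. Vps37b site 1 (chr12:37984790-37984941), of the ESCRT-I complex, had 38.86, 54.14 and 56.70 in SYD, 105.55, 28.67 and 115.87 in Model and 173.78, 54.44 and 132.36 in Control. Vps18 site 2 (chr3:111106882-111108295), of the core shared by HOPS and CORVET, had 49.48, 26.61 and 114.76 in SYD, 52.69, 28.18 and 135.79 in Model and 280.76, 95.37 and 76.93 in Control. Each of these groups overlapped with the others at the site. Vps33a, which guides SNARE assembly in the same complexes, had weak peaks only: 21.62 in Model replicate 1 and 23.12, 20.28 and 20.23 in the Control libraries (chr12:38482419-38483774). None of the 5 symbols of the GARP and EARP complexes (Vps50 to Vps54) had a peak.

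The chromatin gene Vps72 also had a site in all libraries. Site 1 (chr2:196277978-196278165) had scores of 87.16, 20.34 and 43.53 in SYD, 311.48, 50.76 and 46.73 in Model and 25.64, 287.92 and 21.49 in Control, so that each group held both high and low scores.

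Among the early steps of secretion, the translocon genes Sec62 and Sec63 were called often. Sec63 partners the chaperone BiP at the translocation channel and had 5 sites. Its site 2 (chr20:47546467-47546625) had scores of 28.39 and 24.25 in SYD replicates 1 and 2, 221.61 and 105.70 in Model replicates 1 and 3 and 335.14, 107.80 and 161.66 in Control. All SYD scores were below all others there, with only 2 SYD and 2 Model libraries. Of the 917 sites held by all libraries, 40.9% had all SYD scores below all Model scores and 55.1% below all Control scores. In the COPII coat, the cargo adaptor Sec24a was held at site 2 (chr10:37209540-37210174) by SYD replicate 1 with 42.45, Model replicates 1 and 3 with 42.24 and 58.06 and Control replicates 1 and 3 with 76.75 and 30.52. COPII genes were absent from the lists of SYD replicate 2 and Control replicate 2 (0 genes in each). Sec22b, a SNARE between the endoplasmic reticulum and the Golgi apparatus, was held by 4 libraries. Arfgef1, an exchange factor for Arf at the Golgi apparatus (chr5:8666200-8666479), was held by SYD replicate 3 with 32.63, by the Model libraries with 30.33, 44.11 and 20.34 and by the Control libraries with 147.37, 32.85 and 34.09.

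Of the adaptor subunits, Ap3d1, the δ subunit of AP-3, which sends cargo to lysosomes, had 6 sites. Site 3 (chr7:11865778-11865965) was held by all libraries, with scores of 145.54, 84.50 and 176.55 in SYD, 655.16, 384.27 and 365.72 in Model and 151.85, 410.48 and 774.67 in Control. SYD lay below Model without overlap, as at 40.9% of the 917 sites held by all libraries, and overlapped with Control. Ap3b1 site 1 (chr2:24139881-24140025), in the β subunit of the same complex, had 152.29 in Model replicate 1 and 168.23, 30.73 and 41.14 in the Control libraries, and no peak in SYD. Ap1s2, a small subunit of AP-1 (chrX:32355186-32355307), had no peak in SYD, scores of 25.03, 27.00 and 111.77 in Model and scores of 28.39 and 54.48 in Control replicates 1 and 2.

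The numbers of SNARE genes with a peak overlapped between all groups, with 4, 5 and 3 in SYD, 3, 4 and 4 in Model and 6, 3 and 4 in Control. Stx2 site 1, a syntaxin of the plasma membrane (chr12:31335372-31335454), had scores of 73.60, 57.14 and 79.91 in SYD, 117.13, 127.94 and 101.74 in Model and 167.01, 154.66 and 92.33 in Control. Stx11, known for the release of granules in lymphocytes (chr1:7039442-7041043), had 64.49, 50.33 and 43.78 in SYD, 213.42, 59.07 and 238.86 in Model and 347.18, 162.95 and 114.36 in Control. The SYD scores of Stx2 lay below all others, and those of Stx11 below all Control scores. Of the 917 sites held by all libraries, 40.9% had all SYD scores below all Model scores and 55.1% below all Control scores. Dennd5a site 2 (chr1:174588181-174588529), in an exchange factor for Rab39, had 82.67, 93.65 and 33.57 in SYD, 24.95, 219.35 and 212.14 in Model and 45.61, 215.19 and 108.36 in Control, with overlap of the groups.

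**Figure D3:**
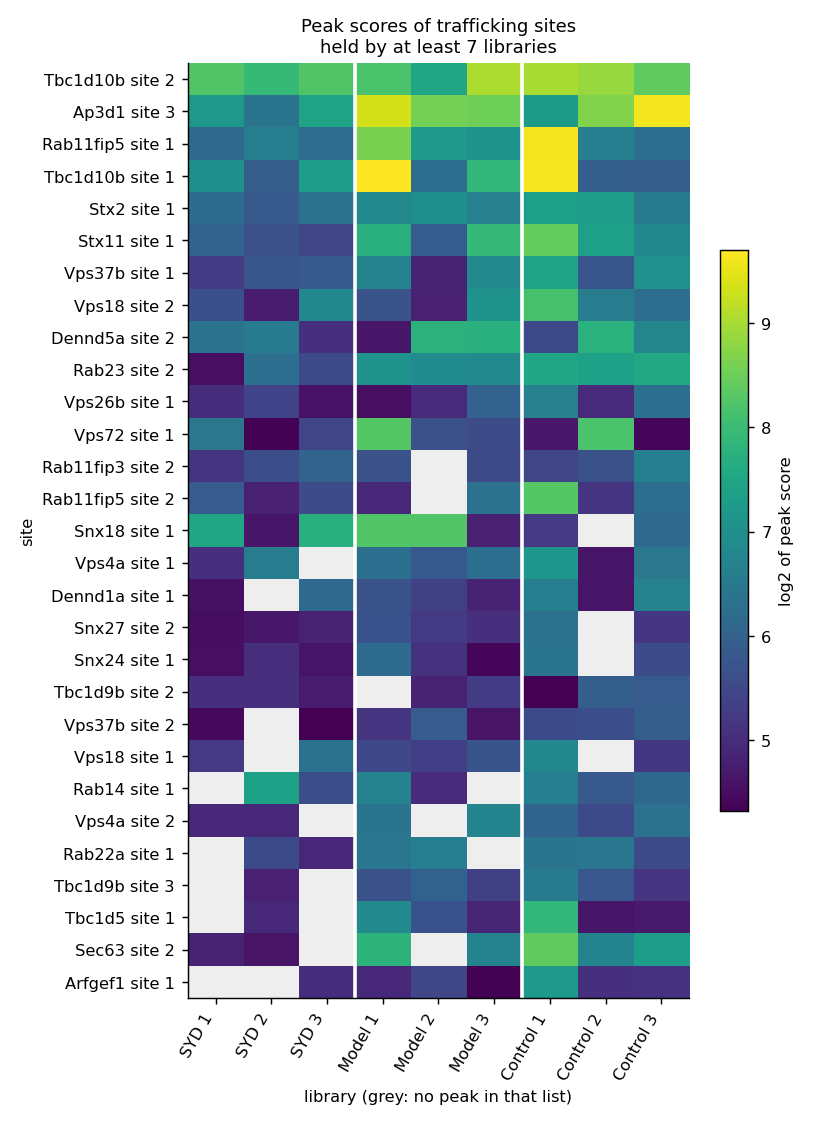
Scores of the 29 trafficking sites held by at least 7 libraries (rows) in the SYD, Model and Control libraries (columns), as log2 of the peak score. Grey marks a library without a peak. The 12 uppermost sites have a peak in every library, and Tbc1d10b site 2 is high throughout.

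Few sites separated the groups, that is, had a peak in each of the 3 libraries of a group and no peak in the group set against it. For SYD against Model, 59 of the 176 trafficking sites were held by at least 3 of the 6 libraries, the number needed for the test. Of these, 2 were held by SYD alone (Snx4 and Rin3 site 1), beside 0.290% of the 3106 sites tested over all genes, and 3 by Model alone (Rab11fip2, Rab8b and Ap1s2), beside 4.80%. For Model against Control, 79 trafficking sites were tested and none was held by Model alone (0 of 79, beside 0.367% of 4090 sites), while 2 were held by Control alone (Snx4 and Tbc1d9b site 1), beside 1.69%. For SYD against Control, 62 were tested and none was held by SYD alone (0 of 62, beside 0.263% of 3419 sites), while 4 were held by Control alone (Ap3b1 site 1, Rab2a, Rab11fip1 site 3 and Vps33a), beside 8.10%.

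With 3 libraries against 3, the two-sided Fisher's exact test cannot give a p below 0.10 for a site, and the adjusted p (Benjamini-Hochberg over all sites tested) was 1 in each comparison. No site passed the test, and the separating sites are a description. Snx4 was present in every library of the remaining group too, whereas the remaining group was mixed at the other sites. For the sites that separated SYD and Model, 1 Control library held Rin3 site 1, 1 held Rab8b, and 2 each held Rab11fip2 and Ap1s2. In lists of equal length, no trafficking site separated SYD from Model or SYD from Control in either direction, and 1 site each was held by Model alone and by Control alone.

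**Figure D4:**
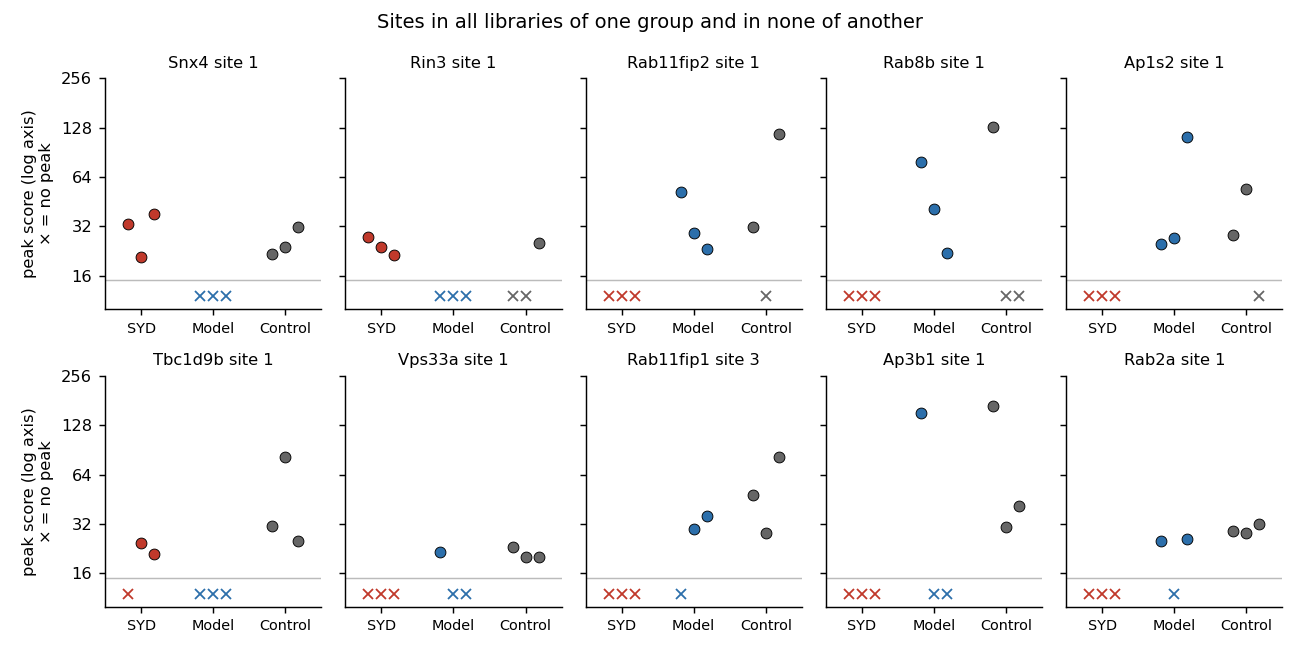
Peak scores (y axis, log scale) of the 10 trafficking sites that separated at least 1 pair of groups, with 1 point for each SYD, Model and Control library. A cross below the line stands for a library without a peak. Most scores lie between 20 and 60. The lowest score of the lists was 20.0, and the library medians over all peaks were 41.5 to 62.8.

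The strength of enrichment was compared at the 917 sites held by all 9 libraries, 12 of them in trafficking genes. The log2 fold enrichment was centred on the median of these sites in each library and compared with limma, with p-values adjusted by Benjamini-Hochberg over the 917 sites. No trafficking site and no site of any other gene passed an adjusted p of 0.05 in SYD against Model, Model against Control or SYD against Control (0 sites in each, beside a background of 0%). At an unadjusted p under 0.05 by limma, there were 67, 22 and 78 sites in the 3 comparisons (7.31%, 2.40% and 8.51%), of which 1, 0 and 1 were trafficking sites. The median size of the difference was 0.13, 0.09 and 0.20 on the log2 scale over the 12 trafficking sites and 0.21, 0.16 and 0.21 over all 917.

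Tbc1d10b site 2 was the trafficking site under that unadjusted level in both cases. Its centred log2 fold was 0.54, 0.24 and 0.29 in SYD, -0.39, -0.22 and 0.14 in Model and -0.45, -0.02 and -0.44 in Control. SYD lay above the other groups without overlap. The difference was 0.51 ± 0.24 for SYD minus Model (SE, 95% interval 0.00 to 1.02, limma adjusted p = 0.663) and 0.66 ± 0.24 for SYD minus Control (interval 0.15 to 1.17, limma adjusted p = 0.508). Of the 12 trafficking sites, 2 had centred folds that did not overlap between SYD and Model (Tbc1d10b site 2 and Vps37b site 1), beside 10.4% of all sites. None of the 12 did so between Model and Control (0, beside 6.32%), and 1 between SYD and Control (Tbc1d10b site 2, beside 12.3%). Tbc1d10b site 2 had a lower score but a higher centred fold in SYD than in Control.

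At Rab23 the centred log2 fold was -0.18, 0.54 and -0.63 in SYD, 0.22, 0.60 and 0.30 in Model and 0.37, 0.53 and 0.38 in Control. The differences were -0.46 ± 0.28 for SYD minus Model (interval -1.06 to 0.13, limma adjusted p = 0.764) and -0.52 ± 0.28 for SYD minus Control (interval -1.12 to 0.08, limma adjusted p = 0.639). Replicate 2 of SYD lay inside the range of the other groups. Vps18 site 2 differed by 0.40 ± 0.28 for SYD minus Model and by -0.48 ± 0.28 for Model minus Control (limma adjusted p = 0.791 and 0.997).

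The remaining differences named by size, up to 3 in each direction and comparison, were no firmer. For SYD minus Model, Vps37b site 1 stood at 0.25 ± 0.23, Stx11 at -0.32 ± 0.23 and Rab11fip5 site 1 at -0.14 ± 0.28. For Model minus Control, Dennd5a site 2 stood at 0.40 ± 0.42, Vps72 site 1 at 0.29 ± 0.51, Tbc1d10b site 2 at 0.15 ± 0.24, and both Vps37b site 1 and Vps26b at -0.07 ± 0.23 and -0.07 ± 0.22. For SYD minus Control, Vps72 site 1 stood at 0.34 ± 0.51, Dennd5a site 2 at 0.32 ± 0.42, Stx11 at -0.22 ± 0.23 and Rab11fip5 site 1 at -0.17 ± 0.28. Each of these intervals included 0, and changes of up to about 1 on the log2 scale cannot be told from none at sites such as Vps72 site 1 (interval -1.05 to 1.15 for SYD minus Model).

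Without centring, the same folds were higher in SYD at most sites of every kind. The median uncentred difference over the 917 sites was 1.15 for SYD minus Model, 0.19 for Model minus Control and 1.35 for SYD minus Control on the log2 scale. By limma, 826 of 917 sites were then higher in SYD than in Model and 880 of 917 higher in SYD than in Control, with 11 and 12 of the 12 trafficking sites among them. The scores moved the opposite way, being lower on average in SYD than in Model at 12 of 12 trafficking sites and 91.6% of all sites, and lower in SYD than in Control at 12 of 12 and 95.4%. These shifts ran through whole libraries.

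**Figure D5:**
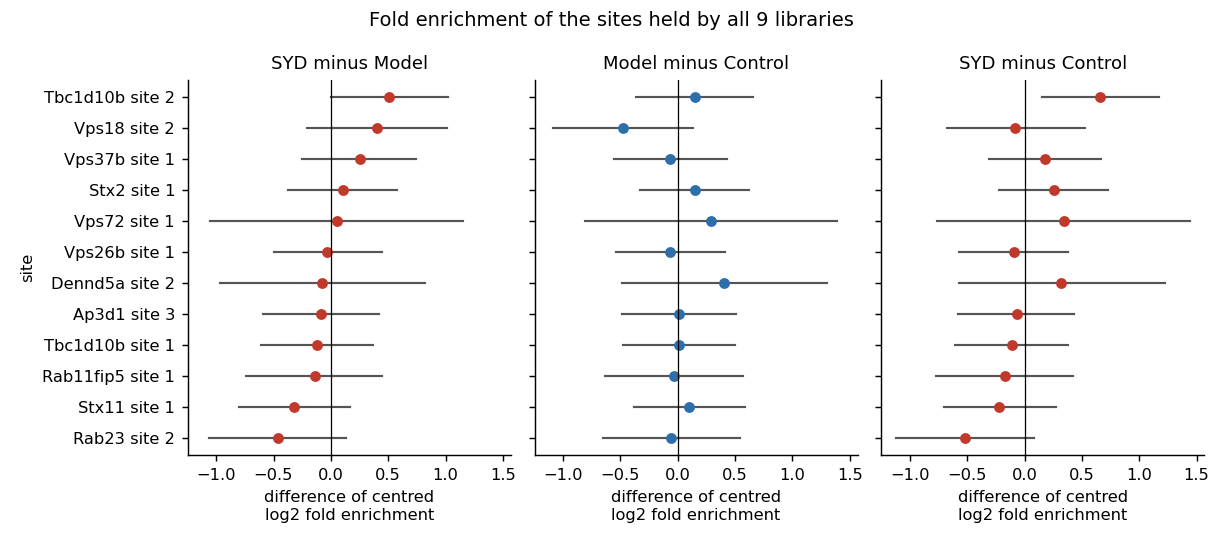
Differences of centred log2 fold enrichment (x axis) at the 12 trafficking sites held by all 9 libraries (y axis) for SYD minus Model, Model minus Control and SYD minus Control. Points are estimates and lines are 95% intervals from limma. Tbc1d10b site 2 stands highest in SYD minus Model, at 0.51, and in SYD minus Control, at 0.66, and no site passed the adjusted threshold.

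Trafficking genes outside the rule also had fewer called members in the SYD libraries than in the others, as was so over all genes. All genes with a peak numbered 1783 to 1997 in SYD, 2037 to 2943 in Model and 2427 to 3507 in Control. Lists of equal length were not counted for the genes outside the rule. Of 211 symbols of the exocyst, COPI, clathrin, ESCRT, Arf, TRAPP and golgin groups and related regulators, 96 had a peak (45.5%), with 39, 42 and 43 of them called under SYD, 55, 44 and 59 under Model and 67, 45 and 53 under Control. For SYD against Model, 65 of their sites were tested. Model alone held 1 (Itsn1, an endocytic scaffold), beside 4.80% of all sites tested, and SYD alone 0, beside 0.290%. For Model against Control, 87 were tested. Model alone held 1 (Wdr91), beside 0.367%, and Control alone 1 (Trappc10), beside 1.69%. For SYD against Control, 75 were tested. Control alone held 2 (Itsn1 and Golga4), beside 8.10%, and SYD alone 1 (Wdfy3, a scaffold of selective autophagy), beside 0.263%. By comparison, 38.0% of the 271 rat symbols that meet the rule had a peak, beside 19.7% of all 23154 protein-coding symbols. Expression of these genes in H9c2 cells was not analysed here, so a gene without a peak may be one without mRNA.

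The annotation in the deposited lists placed many of these genes in the compartments of the pathway. Among 99 trafficking genes with a cellular component term, 26.3% had the term endosome (2.74% of all genes with terms), 22.2% Golgi apparatus (6.24%) and 18.2% early endosome (2.00%), whereas 5.05% had the term nucleus (39.1%). Of the markers of heart muscle, 4 of 13 had a peak (Gata4, Mef2c, Nkx2-5 and Tnnt2), and none of 5 markers of skeletal muscle, of 4 of fibroblasts or of 5 of endothelium and blood did. Because the lists hold m6A peaks and no RNA levels, missing markers do not show missing cells.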

How the data were processed

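H9c2 cells of the SYD, Model and Control groups were profiled by MeRIP-seq. Per the labels and the study's methods, adapters were removed by the authors (cutadapt 1.9.3), reads were mapped to rn6 (HISAT2 2.0.4), and MACS was run on each replicate, with mRNA peaks retained. The deposited score of a peak is its MACS score, equal to 10 times the negative log10 p in 100% of peaks, and the deposited fold is a ratio of IP to input scaled by MACS. The FDR column, at 100 percent throughout, was left out. The lists give no read numbers.

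Members were found by symbol. The members and gene lists were chosen with earlier results of these data known. Peaks overlapping by at least 1 base were merged, and the peak with the highest score stood for a site. Presence was tested by two-sided Fisher's exact test on sites in at least 3 of 6 libraries, and log2 fold enrichment, centred per library, by limma 3.58.1 (R 4.3.3) on all 3 groups, with Benjamini-Hochberg adjustment over all sites. Member counts were described without a test. Genes named have separating sites, sites in all 9 libraries with high lowest scores or large fold differences, the most sites, or the widest presence in a role group. The alternatives comprised lists of equal length, a minimum score of 50, 50% overlap, 2 libraries against none, genes as units, other normalizations, a replicate block and leaving out each library. Scripts were tested on simulated data. Python 3.11.15, pandas 2.3.3 and scipy 1.17.1 were used. Peak sequences, the RRACH motif and transcript regions were not analysed here.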

Additional observations from a re-analysis of the deposited data

How the results depend on the processing

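The counts of separating sites depended on the lists. For SYD against Model, the 2 sites held by SYD became 0 with scores of at least 50, 0 in lists of equal length and 4 with at least 2 libraries against none, and ranged from 2 to 4 when 1 library was left out (4 without SYD replicate 1). The 3 sites held by Model became 0, 0 and 13 under the same settings and ranged from 3 to 8 (5 without SYD replicate 2 or Model replicate 3, 7 without SYD replicate 3, 8 without Model replicate 1, 6 without Model replicate 2). For Model against Control, the 0 sites held by Model became 1 in lists of equal length and 7 with at least 2 libraries against none, and ranged from 0 to 4 (4, 2 and 1 without Model replicates 1, 2 and 3, and 3 without Control replicate 1). The 2 sites held by Control became 1 with scores of at least 50, 1 in lists of equal length, 5 with at least 2 libraries against none and 1 with genes as units, and ranged from 2 to 5 (5 without Model replicate 1). For SYD against Control, the 0 sites held by SYD became 2 with at least 2 libraries against none and 1 with genes as units, and ranged from 0 to 2 (2 without SYD replicate 1, 1 without Control replicate 2 or 3). The 4 sites held by Control became 0 in lists of equal length and 20 with at least 2 libraries against none, and ranged from 5 to 10 (7 without SYD replicate 3, 10, 8 and 10 without Control replicates 1, 2 and 3). Merging only peaks that shared 50% of the shorter one changed none of these 6 counts. Leaving out a library eases the demand on its group, which allows more sites to separate.

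The difference in trafficking genes per library was -15.0 for SYD minus Model and -18.3 for SYD minus Control, and 0.667 and 1.33 in lists of equal length, where all lists hold the same number of peaks. Without 1 library, it ranged from -18.3 to -12.8 for SYD minus Model and from -24.8 to -11.3 for SYD minus Control. The difference of -3.33 for Model minus Control ranged from -9.83 to 3.67, the last without Control replicate 1.

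No trafficking site passed the fold test under any setting but no centring, which gave 11 for SYD against Model and 12 for SYD against Control. Under no centring, the shift of whole libraries turned the sign at Rab23 (0.68 and 0.81 for SYD minus Model and SYD minus Control), Stx11 (0.82 and 1.12) and Rab11fip5 site 1 (1.00 and 1.16), and for Model minus Control at Vps37b site 1 (0.12) and Vps26b (0.12). With log2 scores in place of folds, also centred per library, Rab11fip5 site 1 stood at 0.16 for SYD minus Control. Tbc1d10b site 2 stood at -0.17 for Model minus Control. These are positions relative to the library median: uncentred, the mean score was lower in SYD than in Control at 12 of 12 trafficking sites. The cause was not tested. Leaving out 1 library turned the sign of small differences: Rab11fip5 site 1 ranged from -0.35 to 0.05 for SYD minus Model and from -0.31 to 0.08 for SYD minus Control, and for Model minus Control, Vps37b site 1 ranged from -0.24 to 0.06, Vps26b from -0.18 to 0.04 and Vps72 site 1 from -0.29 to 0.86. For SYD minus Control, Dennd5a site 2 ranged from -0.01 to 0.65 and Vps72 site 1 from -0.14 to 0.91.

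Replicate numbers were shared by the groups but no source says that they mark a shared batch. Deviations of same-numbered libraries from their group means correlated at -0.05 to 0.26 over sites and those of other pairs at -0.19 to 0.11. The highest value, 0.26, was that of Model and Control replicate 1, and Model and Control replicates 2 and 3 stood at 0.10 and 0.03. The numbers were not taken as pairs because no source names them as such. Whether they mark a shared batch of Model and Control was not tested. With the replicate block, 0 trafficking sites passed in each comparison, as without it. Depth is unknown, scores near the lowest one are the most easily lost, and 3 libraries per group limit every comparison.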
